A study of Mus musculus with 12 samples.

Results

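The genes described here are 10 transcription factors that pattern the limb and its mesenchyme in the embryo: Tbx4, Tbx5, Tbx15, Tbx18, Pitx1, Shox2, Prrx1, Prrx2, Twist1 and Twist2. They were chosen by name, and all 10 were found among the 49585 Ensembl genes of the count files. Their transcripts were measured by RNA-seq in 4 populations of mesenchymal cells sorted from the bones of adult mice, with 3 libraries of 2000 cells each. Itga8+ MSCs (Itga8+Alcam+Sca-1-), Itga8-Alcam+ BLCs (Itga8-Alcam+Sca-1-, which the labels call osteoblasts) and Sca-1+ MSCs (Alcam-Sca-1+) came from collagenase-digested fragments of femora, tibias and iliac bones after the marrow had been flushed out. CD51+CD140a+ MSCs came from the flushed marrow of femora and tibias, digested with Accumax. MSC stands for mesenchymal stem cell, a stromal cell that can form bone, fat and cartilage, and BLC for bone-lining cell, a cell of the bone surface. All cells were CD45-Ter119-CD31- and came from male wild-type C57BL/6 mice aged 8 to 10 weeks in steady state. Each sort was a gate on surface proteins, so a population can hold more than 1 cell type. The tissue compartment and the digestion set CD51+CD140a+ MSCs apart from the other 3 populations, so population, compartment and digestion cannot be told apart in comparisons with them. No source used here says that the 3 libraries of a population came from separate animals, so the p-values measure the spread between these samples only.

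Limb patterning factors set where a limb forms, which limb it becomes and how its skeleton is laid out. The T-box factors share a DNA-binding domain: Tbx5 marks the forelimb bud, Tbx4 the hindlimb bud, and Tbx15 and Tbx18 act in the mesenchyme of the limb girdles, skin and axial skeleton. Pitx1 is a homeobox gene of the hindlimb that lies upstream of Tbx4, and Shox2 is a homeobox gene required for the proximal limb bones. Prrx1 and Prrx2 are paired-related homeobox genes of limb bud and craniofacial mesenchyme, and regulatory DNA of Prrx1 is widely used to drive Cre in limb mesenchyme. Twist1 and Twist2 are basic helix-loop-helix (bHLH) factors that bind E-boxes as dimers with E proteins and hold back Runx2-driven osteoblast differentiation.

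RefSeq's table of promoters held 7 of the 10 genes. The 250 bases before the RefSeq transcription start of Tbx4, Shox2 and Twist1 are shown because each of these genes differed between populations and because none of these bases lies in an exon of GENCODE M21. They are written 5′ to 3′ along the gene's strand, with GRCm38.p6 coordinates. Capitals mark every match, on either strand, to 1 of 7 motifs: E-box CANNTG, Twist-type E-box CATCTG (which is also a CANNTG match), T-box site GGTGTGA, homeodomain core TAATTA, bicoid-type site TAATCC, GC box GGGCGG and TATA box TATAAA.
Tbx4, chr11:85896515-85896764 (+ strand): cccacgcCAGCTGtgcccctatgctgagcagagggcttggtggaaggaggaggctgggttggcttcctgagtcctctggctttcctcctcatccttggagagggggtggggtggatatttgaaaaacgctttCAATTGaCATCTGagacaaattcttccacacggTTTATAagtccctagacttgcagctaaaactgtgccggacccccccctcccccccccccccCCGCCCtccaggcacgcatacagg
Shox2, chr3:66981772-66982021 (- strand): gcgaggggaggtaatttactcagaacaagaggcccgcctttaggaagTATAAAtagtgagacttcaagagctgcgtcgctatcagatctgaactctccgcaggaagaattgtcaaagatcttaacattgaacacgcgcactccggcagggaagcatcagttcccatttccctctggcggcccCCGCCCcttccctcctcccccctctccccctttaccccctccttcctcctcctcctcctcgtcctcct
Twist1, chr12:33957421-33957670 (+ strand): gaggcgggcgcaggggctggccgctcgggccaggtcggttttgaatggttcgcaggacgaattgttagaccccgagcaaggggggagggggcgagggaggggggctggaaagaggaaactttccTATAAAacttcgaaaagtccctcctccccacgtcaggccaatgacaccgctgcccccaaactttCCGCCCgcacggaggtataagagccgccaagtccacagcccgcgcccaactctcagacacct
The Tbx4 sequence held 3 E-boxes, 1 of them CATCTG, with 1 GC box and 1 TATA box. The Shox2 and Twist1 sequences each held 1 GC box and 1 TATA box and no match to the other motifs. Of the 250-base sequences before the starts of all 32851 RefSeq promoters in the table, 66.2% held CANNTG, 14.4% CATCTG, 32.7% GGGCGG and 12.4% TATAAA. The Tbx4 window had 6 CpG dinucleotides, the median of all promoters, whereas the Shox2 window had 11 and the Twist1 window 18. These matches describe letters in a window and were not measured as binding sites.

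Libraries held 17580677 to 31332475 counts, so 3 counts, treated here as the floor, came to 0.0820 to 0.180 CPM (read counts relative to library size, scaled by edgeR's TMM method). These floors cover counting error only, because amplified copies of a molecule cannot be told apart. The sorts matched their labels in part. Osteoblast genes were high in Itga8-Alcam+ BLCs (Dmp1, mean 1870 CPM, against 0.171 in Itga8+ MSCs), Lepr and Cxcl12 in CD51+CD140a+ MSCs, and Ly6a, which encodes Sca-1, in Sca-1+ MSCs (636 CPM against 1.42 to 27.5 elsewhere). Itga8 was at 103 ± 85.7 CPM (SD, n = 3) in Itga8+ MSCs and at 64.4 ± 16.2 in CD51+CD140a+ MSCs, and Alcam did not exceed 5.82 CPM in any library. The tendon marker Tnmd was at 639 to 5330 CPM in Itga8+ MSCs and at 125 CPM or lower elsewhere, whereas 11 tendon genes summed to 22200 to 42500 CPM there and to 11700 to 22400 CPM in the other populations. Of the cartilage genes, Col2a1 ranged from 5270 to 105000 CPM over the 6 Alcam+ libraries. The summed level of 11 leukocyte genes was 2780 to 18800 CPM in Itga8+ MSCs, 5890 to 8230 CPM among Itga8-Alcam+ BLCs and 1050 to 2400 in the other populations. Libraries of both Alcam+ populations also differed by a trend with exon length. Relative to the mean of their own population, their levels changed by -0.46 to 0.38 (log2) per doubling of length, against -0.08 to 0.05 in the other 6 libraries. They fell most steeply with length in Itga8+ replicate 2 and Itga8- replicate 3. Such slopes cannot show a length trend that all libraries of a population share.

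Of the 10 factors, 6 differed between at least 1 pair of populations (Tbx4, Shox2, Prrx1, Prrx2, Twist1 and Twist2), and Tbx5, Tbx15, Tbx18 and Pitx1 were called in none, although Tbx5, Tbx15 and Tbx18 were called under some alternatives given with each gene. Of all genes tested, 53.6% were called between at least 1 pair. The clearest contrasts were Tbx4, found mainly in Sca-1+ MSCs; Prrx1, lower in both Alcam+ populations; Prrx2, at 1.45 CPM or lower in CD51+CD140a+ MSCs; and Twist2, at 0.747 CPM or lower in Itga8-Alcam+ BLCs. A gene was called different when edgeR's quasi-likelihood test gave an FDR (Benjamini-Hochberg, over all 18648 genes tested) under 0.1 and the fold change exceeded 2. This gave 21 calls in 60 tests, 10 factors in 6 comparisons, beside 23.6% of the tests of all genes. With 3 libraries against 3, the exact two-sided permutation test cannot go below p = 0.1, and it stood at that value for each of the 21 calls.

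**Figure D1:**
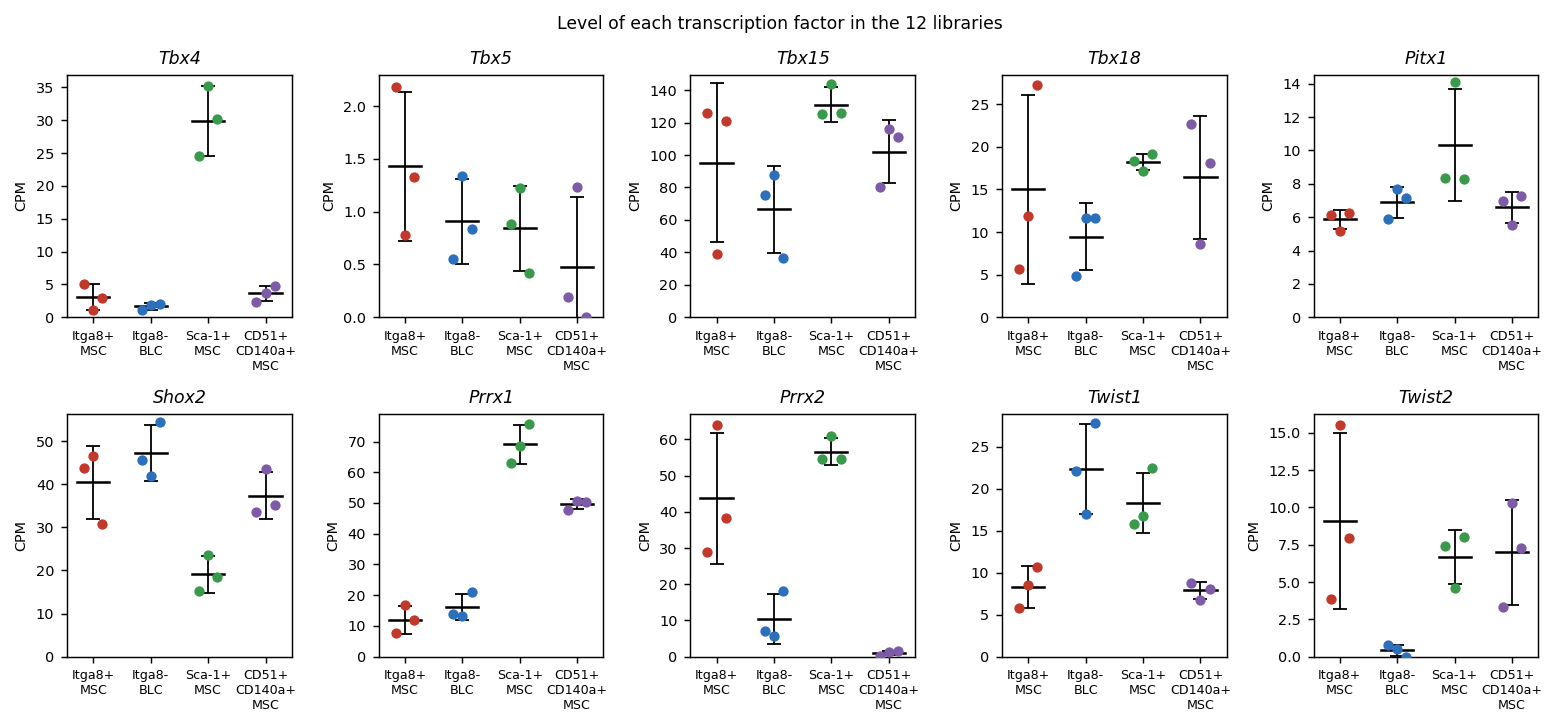
Level of each factor in CPM (linear axes from 0) in the 4 populations. Points are the 3 libraries of a population, lines their mean and bars the SD. Tbx4 lay at 24.5 to 35.2 CPM in Sca-1+ MSCs and at 5.10 CPM or lower in the other 9 libraries, and Twist2 lay at 0.747 CPM or lower in Itga8-Alcam+ BLCs.

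Tbx4 (ENSMUSG00000000094; GRCm38 chromosome 11, 85886422 to 85916097, plus strand), the hindlimb T-box gene, was at 24.5, 35.2 and 30.2 CPM in the 3 libraries of Sca-1+ MSCs. It was at 5.10, 1.09 and 3.00 CPM in Itga8+ MSCs, at 1.05, 1.9 and 2.1 CPM in Itga8-Alcam+ BLCs, and at 2.40, 3.70 and 4.80 CPM in CD51+CD140a+ MSCs. Every Sca-1+ library was above all 9 others. In these bulk libraries, fewer cells that express a gene and less of its RNA per cell cannot be told apart. The level in Sca-1+ MSCs was 9.75-fold that in Itga8+ MSCs (log2 difference 3.29, SE 0.54, edgeR FDR = 0.00216), 17.8-fold that in Itga8-Alcam+ BLCs (FDR = 0.000495) and 8.23-fold that in CD51+CD140a+ MSCs (3.04, SE 0.531, FDR = 0.00169). No difference among the other 3 populations was called. Itga8-Alcam+ BLCs were all below CD51+CD140a+ MSCs (log2 difference -1.11, SE 0.514), with an edgeR FDR of 0.123, but this difference was called by DESeq2 (-1.10, FDR = 0.086), with library totals alone (-1.48, FDR = 0.0459) and with Itga8+ replicate 2 and Itga8- replicate 3 left out together (-1.30, FDR = 0.0374). The 8 adventitial fibroblast genes (Ly6a, Cd34, Pi16, Dpp4, Dpt, Clec3b, Ly6c1 and Sema3c), all over the floor in Sca-1+ MSCs, summed to 3390 to 3950 CPM there and to 9.34 to 234 CPM elsewhere. Their part in the Tbx4 result was not tested.

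Tbx5 (ENSMUSG00000018263; chromosome 5, 119832668 to 119885219, plus strand), the forelimb gene, was low throughout. It was at 2.18, 0.779 and 1.33 CPM in Itga8+ MSCs and at 0.548, 1.34 and 0.839 CPM in Itga8-Alcam+ BLCs. It was at 0.885, 1.22 and 0.422 CPM in Sca-1+ MSCs, and at 0.191, 1.23 and 0 CPM in CD51+CD140a+ MSCs, where no count allows up to 0.0966 CPM in replicate 3. The populations overlapped in all 6 comparisons and the edgeR FDR ranged from 0.282 to 0.959, so none was called. The difference from CD51+CD140a+ MSCs depended on replicate 2 of that population, which held 43 counts against 7 and 0 in the other two. Without it, the log2 difference went from 1.57 to 3.78 for Itga8+ MSCs (edgeR FDR = 0.0368) and from 0.93 to 3.14 for Itga8-Alcam+ BLCs (FDR = 0.0653), both called, and limma-trend called the former with all libraries (1.92, FDR = 0.0738). Per length, in TPM (a level corrected for exon length and library size), Tbx4 exceeded Tbx5 in all 12 libraries. The log2 ratio of their TPM values (each + 0.1) was 5.49 ± 0.65 (SD, n = 3) in Sca-1+ MSCs, 1.33 ± 0.46 for Itga8+ MSCs and 1.22 ± 0.34 for Itga8-Alcam+ BLCs. It was 3.51 and 1.94 in replicates 1 and 2 of CD51+CD140a+ MSCs, while the value of 5.79 in replicate 3 was set by the added 0.1, since Tbx5 had no count there. Femora and tibias are hindlimb bones, and iliac bones were also used for the populations from bone fragments. No forelimb bone was sampled, and the part of limb position in these ratios was not tested.

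Tbx15 (ENSMUSG00000027868; chromosome 3, 99240381 to 99354259, plus strand), which shapes the scapula and skin, was the most abundant of the 10 factors in 10 of 12 libraries by TPM and ranked no lower than 3 in any. It was at 126, 38.7 and 121 CPM in Itga8+ MSCs, at 75.5, 87.5 and 36.5 CPM in Itga8-Alcam+ BLCs, at 125, 144 and 126 CPM in Sca-1+ MSCs, and at 80.2, 116 and 111 CPM in CD51+CD140a+ MSCs. The lowest library of each Alcam+ population, Itga8+ replicate 2 and Itga8- replicate 3, was also the one whose levels fell most steeply with exon length, as well as the one with the lowest summed cartilage and osteoblast genes. In Itga8+ replicate 2 the cartilage genes summed to 33900 CPM (90900 and 134000 in the other Itga8+ libraries) and the osteoblast genes to 806 CPM (7280 and 8210), whereas leukocyte genes summed to 18800 CPM (6880 and 2780) and erythroid genes to 2570 CPM (433 and 220). In Itga8- replicate 3 the cartilage genes summed to 19600 CPM (55500 and 87800) and the osteoblast genes to 38200 CPM (85300 and 116000). The part of the length trend and of these markers in the Tbx15 values was not tested. All Itga8-Alcam+ BLC libraries were below all Sca-1+ libraries, with a log2 difference of -0.98 (SE 0.435), but the FDR of edgeR was 0.13. It was called when these 2 populations were fitted alone (-1.01, FDR = 0.0605), with library totals alone (-1.19, FDR = 0.0821) and without Itga8- replicate 2 (-1.27, FDR = 0.0924). No other comparison of Tbx15 came closer to the threshold.

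Tbx18 (ENSMUSG00000032419; chromosome 9, 87702800 to 87731260, minus strand), a marker of pericytes and of the sclerotome, was at 5.69, 11.9 and 27.3 CPM in Itga8+ MSCs and at 4.88, 11.7 and 11.7 CPM in Itga8-Alcam+ BLCs. It was at 18.3, 17.2 and 19.2 CPM in Sca-1+ MSCs and at 22.7, 8.54 and 18.1 CPM in CD51+CD140a+ MSCs. The SD was 74.3% of the mean in Itga8+ MSCs but 5.27% of it in Sca-1+ MSCs. No comparison was called (edgeR FDR 0.245 to 0.928), and the lowest FDR was for Itga8-Alcam+ BLCs, all below Sca-1+ MSCs. With library totals alone, Itga8-Alcam+ BLCs were called lower than CD51+CD140a+ MSCs (log2 difference -1.22, FDR = 0.0911, against -0.80 and 0.292). Exons of an opposite-strand gene, D030062O11Rik, cover 20.6% of the exons of Tbx18, and the kit does not mark strand, so its counts are uncertain by that part. By TPM, Tbx15 exceeded Tbx18 by a log2 ratio of 3.05 to 3.17 in the means of the 4 populations.

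Pitx1 (ENSMUSG00000021506; chromosome 13, 55825051 to 55836192, minus strand), the hindlimb homeobox gene upstream of Tbx4, was found in every library within a narrow range. It was at 6.14, 5.19 and 6.24 CPM in Itga8+ MSCs, at 5.88, 7.69 and 7.13 CPM in Itga8-Alcam+ BLCs, at 8.35, 14.1 and 8.29 CPM in Sca-1+ MSCs, and at 6.97, 5.53 and 7.28 CPM in CD51+CD140a+ MSCs. The 3 Sca-1+ libraries were above all 9 others. Their mean was 1.75-fold that of Itga8+ MSCs (log2 difference 0.81, SE 0.328), 1.49-fold that of Itga8-Alcam+ BLCs and 1.56-fold that of CD51+CD140a+ MSCs, and the edgeR FDR was 0.115, 0.234 and 0.235, so none was called. Of its exons, 10.3% lie under those of Gm47071 and Gm28760.

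Shox2 (ENSMUSG00000027833; chromosome 3, 66971727 to 66981771, minus strand) was lowest in Sca-1+ MSCs, at 15.3, 23.7 and 18.4 CPM. It was at 43.9, 46.7 and 30.8 CPM in Itga8+ MSCs, at 45.6, 41.9 and 54.4 CPM in Itga8-Alcam+ BLCs, and at 33.5, 43.6 and 35.1 CPM in CD51+CD140a+ MSCs. Every Sca-1+ library was below all 9 others, the reverse of Tbx4 and Pitx1. Compared with Sca-1+ MSCs, Shox2 was 2.47-fold higher in Itga8-Alcam+ BLCs (log2 difference 1.31, SE 0.283, edgeR FDR = 0.00762) and 2.11-fold higher in Itga8+ MSCs (1.08, SE 0.282, FDR = 0.0241). It was 1.95-fold higher in CD51+CD140a+ MSCs, with an FDR of 0.0339, just short of the 2-fold limit, which it passed in 4 of 16 alternatives. Differences among the 3 higher populations were at most 0.34 (log2, SE 0.278) and were not called. The call against Itga8+ MSCs lay near the fold limit as well and was lost in 3 of 16 alternatives. These were without Itga8+ replicate 2, without Sca-1+ replicate 1 (edgeR FDR = 0.106), and with Itga8+ replicate 2 and Itga8- replicate 3 left out together. Its log2 difference was at least 0.94 over all alternatives.

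Prrx1 (ENSMUSG00000026586; chromosome 1, 163245119 to 163313710, minus strand) divided the populations into a low pair and a high pair. It was at 7.52, 16.7 and 11.9 CPM in Itga8+ MSCs and at 13.9, 13.2 and 20.9 CPM in Itga8-Alcam+ BLCs, whereas it was at 63.0, 68.6 and 75.6 CPM in Sca-1+ MSCs and at 47.7, 50.7 and 50.4 CPM in CD51+CD140a+ MSCs. All 6 libraries of the high pair were above all 6 of the low pair. Sca-1+ MSCs were 5.74-fold above Itga8+ MSCs (log2 difference 2.52, SE 0.332, edgeR FDR = 0.000563) and 4.32-fold above Itga8-Alcam+ BLCs (FDR = 0.00101). CD51+CD140a+ MSCs were 4.12-fold above Itga8+ MSCs (FDR = 0.000703) and 3.10-fold above Itga8-Alcam+ BLCs (FDR = 0.00271). Within each pair the difference was not called. The 11 cartilage genes, all over the floor in each population, summed to 19600 to 134000 CPM in the 2 Alcam+ populations and to 619 to 9670 CPM in the other 2, and their part in the Prrx1 result was not tested. Pdgfra, a receptor used to sort CD51+CD140a+ MSCs (CD140a), followed the same division, with means of 874 and 767 CPM in Sca-1+ and CD51+CD140a+ MSCs and of 15.4 and 83.7 CPM in Itga8+ MSCs and Itga8-Alcam+ BLCs.

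Prrx2 (ENSMUSG00000039476; chromosome 2, 30834972 to 30881251, plus strand), the closest relative of Prrx1, had a different order. It was at 54.6, 60.9 and 54.5 CPM in Sca-1+ MSCs, at 28.9, 63.9 and 38.2 CPM in Itga8+ MSCs and at 7.07, 5.79 and 18.2 CPM in Itga8-Alcam+ BLCs. In CD51+CD140a+ MSCs it was at 0.301, 1.15 and 1.45 CPM, from 11, 40 and 45 counts, and all 9 other libraries were above these. The level in Sca-1+ MSCs was 58.6-fold that in CD51+CD140a+ MSCs (log2 difference 5.87, SE 0.672, edgeR FDR = 8.6e-05), that in Itga8+ MSCs 45.2-fold (FDR = 0.000105) and that in Itga8-Alcam+ BLCs 10.7-fold (FDR = 0.00145). Itga8-Alcam+ BLCs were 5.47-fold below Sca-1+ MSCs (log2 difference -2.45, FDR = 0.011). The values of Itga8-Alcam+ BLCs depended on replicate 3, their highest library: without it the log2 difference was -3.14 from Sca-1+ MSCs and went from 3.42 to 2.73 from CD51+CD140a+ MSCs, both still called. Itga8- replicate 3 and Itga8+ replicate 2, each the highest library of its population here, were those whose levels fell most steeply with exon length. The part of the length trend in the Prrx2 values was not tested. Itga8+ MSCs were 4.22-fold above Itga8-Alcam+ BLCs (log2 difference 2.08, SE 0.562) at an FDR of 0.0905, a call that 8 of 16 alternatives lost, among them leaving out any 1 Itga8+ library, and without Itga8- replicate 3 the log2 difference was 2.75. Itga8+ and Sca-1+ MSCs overlapped and were not separated (FDR = 0.656).

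The balance of the 2 Prrx genes differed in sign between populations. By CPM, with no account of length, Prrx1 exceeded Prrx2 in the 9 libraries of Itga8-Alcam+ BLCs, Sca-1+ and CD51+CD140a+ MSCs and was below it in the 3 of Itga8+ MSCs. The order per length rests on the annotated exons, which come to 11066 bases for Prrx1 and 1961 for Prrx2. Per length, Prrx2 exceeded Prrx1 in all 9 libraries from bone fragments, with log2 ratios of Prrx1 to Prrx2 TPM (each + 0.1) of -4.31 ± 0.14 (SD, n = 3) in Itga8+ MSCs, then -2.21 ± 0.16 for Sca-1+ MSCs and -1.69 ± 0.52 for Itga8-Alcam+ BLCs. In the 3 libraries from flushed marrow Prrx1 exceeded Prrx2, with a ratio of 3.37 ± 1.09. Prrx2 took 20.3 to 44.3% of the summed TPM of the 10 factors in Itga8+ MSCs and 0.303 to 1.22% in CD51+CD140a+ MSCs.

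Twist1 (ENSMUSG00000035799; chromosome 12, 33957671 to 33959829, plus strand) was higher in Itga8-Alcam+ BLCs and Sca-1+ MSCs than in the other 2 populations. It was at 22.1, 17.0 and 27.8 CPM in Itga8-Alcam+ BLCs and at 15.8, 16.7 and 22.4 CPM in Sca-1+ MSCs, but at 5.74, 8.47 and 10.7 CPM in Itga8+ MSCs and at 8.82, 6.79 and 8.05 CPM in CD51+CD140a+ MSCs. All 6 higher libraries were above all 6 lower ones. Itga8-Alcam+ BLCs were 2.82-fold above CD51+CD140a+ MSCs (log2 difference 1.5, SE 0.335, edgeR FDR = 0.00591) and 2.68-fold above Itga8+ MSCs (1.42, SE 0.336, FDR = 0.0488). Sca-1+ MSCs were 2.20-fold above Itga8+ MSCs (FDR = 0.0395) and 2.32-fold above CD51+CD140a+ MSCs (FDR = 0.0254). The call between the 2 Alcam+ populations was lost in 6 of 16 alternatives, among them without Itga8+ replicate 1 or Itga8- replicate 1 or 3. That of Sca-1+ over Itga8+ MSCs was lost in 3, among them without Itga8+ replicate 1 or Sca-1+ replicate 3, and that of Sca-1+ over CD51+CD140a+ MSCs without Sca-1+ replicate 3.

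Twist2 (ENSMUSG00000007805; chromosome 1, 91801461 to 91848028, plus strand) was lowest in Itga8-Alcam+ BLCs, a population with high Twist1. In Itga8-Alcam+ BLCs it was at 0.747, 0.51 and 0 CPM, from 15, 11 and 0 counts, and no count allows up to 0.180 CPM in replicate 3. It was at 3.86, 15.5 and 7.92 CPM in Itga8+ MSCs, at 7.41, 4.63 and 8.01 CPM in Sca-1+ MSCs, and at 3.33, 10.3 and 7.28 CPM in CD51+CD140a+ MSCs. All 9 of these libraries were above all 3 of Itga8-Alcam+ BLCs. The level was 20.9-fold higher in Itga8+ MSCs (fitted log2 difference 4.39, SE 0.882, edgeR FDR = 0.0217), 16.1-fold higher in CD51+CD140a+ MSCs (FDR = 0.00508) and 15.4-fold higher in Sca-1+ MSCs (FDR = 0.00848). The first call was lost when the 2 Alcam+ populations were fitted alone, and its log2 difference ranged from 3.78 without Itga8+ replicate 2 to 5.05 without Itga8- replicate 1 and was 3.24 with Itga8+ replicate 2 and Itga8- replicate 3 left out together. Without Itga8- replicate 1, the log2 difference of the BLCs went from -3.95 to -4.65 against Sca-1+ MSCs and from -4.01 to -4.67 against CD51+CD140a+ MSCs. The 3 higher populations overlapped with each other. Of the exons of Twist2, 46.5% lie under those of the opposite-strand gene Gm29100, so reads of both cannot be told apart over that part.

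Per length, Twist1 exceeded Twist2 in all 12 libraries, by log2 ratios of TPM (each + 0.1) of 2.42 ± 0.37 (SD, n = 3) for Sca-1+ MSCs, 1.27 ± 1.00 for CD51+CD140a+ MSCs and 1.00 ± 0.79 for Itga8+ MSCs. By CPM, with no account of length, Twist2 was above Twist1 in Itga8+ replicate 2 (15.5 against 8.47) and CD51+CD140a+ replicate 2 (10.3 against 6.79). Twist1 was above Twist2 in the other libraries. The order per length rests on the annotated exons, and 46.5% of those of Twist2 lie under Gm29100. The ratio was 5.68 and 5.78 in replicates 1 and 2 of Itga8-Alcam+ BLCs, and that of replicate 3, 8.60, was set by the added 0.1, since Twist2 had no count there. Itga8-Alcam+ BLCs were also the population with the highest osteoblast markers: 11 genes, all over the floor there, summed to 38200 to 116000 CPM, against 806 to 19600 CPM in the other populations. Their part in the Twist results was not tested.

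**Figure D2:**
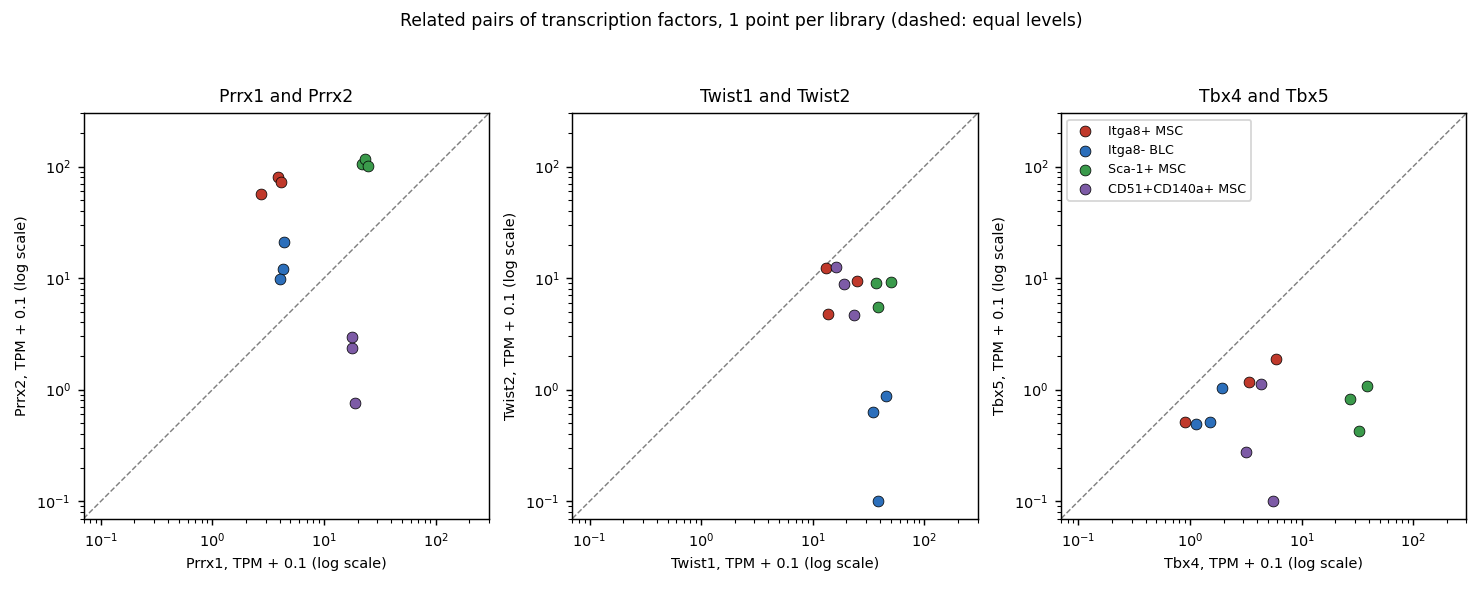
Level per exon length (TPM + 0.1, log axes) of 3 pairs of related factors, 1 point per library, coloured by population; the dashed line marks equal levels. The CD51+CD140a+ MSC libraries lie on the Prrx1 side of the line and the other 9 on the Prrx2 side, and the Itga8-Alcam+ BLC libraries lie lowest for Twist2.

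Counted by comparison, the factors called were 3 of 10 between Itga8+ MSCs and Itga8-Alcam+ BLCs, where 3.68% of all genes were called. This count was 1 to 2 with any 1 library of the pair left out, 2 with the replicate number as a block and 0 when the pair was fitted alone. Prrx2 and Twist2 were higher in Itga8+ MSCs, as were 1.61% of all genes, and Twist1 was higher in Itga8-Alcam+ BLCs, as were 2.07%. Itga8+ and Sca-1+ MSCs differed in 4 factors (21.3% of all genes), with Shox2 higher in Itga8+ MSCs (12.6%) and Tbx4, Prrx1 and Twist1 higher in Sca-1+ MSCs (8.70%). Itga8-Alcam+ BLCs and Sca-1+ MSCs differed in 5 (26.0%), with Shox2 higher in the BLCs (14.2%) and Tbx4, Prrx1, Prrx2 and Twist2 higher in Sca-1+ MSCs (11.8%). Of the 2 factors that differed between Itga8+ and CD51+CD140a+ MSCs (35.1%), Prrx2 was higher in the former (20.9%) and Prrx1 in the latter (14.2%). Of the 4 that differed between Itga8-Alcam+ BLCs and the marrow cells (35.0%), Prrx2 and Twist1 were higher in the BLCs (20.3%) and Prrx1 and Twist2 in CD51+CD140a+ MSCs (14.7%). The 3 that differed between Sca-1+ and CD51+CD140a+ MSCs (20.3%), Tbx4, Prrx2 and Twist1, were higher in Sca-1+ MSCs (11.1%), and none was higher in CD51+CD140a+ MSCs (9.15%). For CD51+CD140a+ MSCs against the 2 Alcam+ populations, the shares of 20% and 40% stood beside backgrounds of 35.1% and 35.0%. The comparisons share populations and are not independent of each other.

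Factors whose libraries did not overlap numbered 3 between Itga8+ MSCs and Itga8-Alcam+ BLCs (14.2% of all genes), 5 between Itga8+ and Sca-1+ MSCs (37.6%) and 2 between Itga8+ and CD51+CD140a+ MSCs (44.4%). They numbered 8 between Itga8-Alcam+ BLCs and Sca-1+ MSCs (45.7%), 5 for the same BLCs against CD51+CD140a+ MSCs (49.8%) and 7 for Sca-1+ against CD51+CD140a+ MSCs (45.9%). The median log2 difference of the 10 factors was furthest from 0 between Itga8-Alcam+ BLCs and Sca-1+ MSCs, at -0.96, where the median of all genes was 0.12. It was closest to 0 between Itga8+ and CD51+CD140a+ MSCs, at -0.01, where the median of all genes was 0.18. Summed over the 10 factors, TPM was 372 to 425 in Sca-1+ MSCs, 220 to 240 in CD51+CD140a+ MSCs, 183 to 301 in Itga8+ MSCs and 137 to 188 in Itga8-Alcam+ BLCs.

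**Figure D3:**
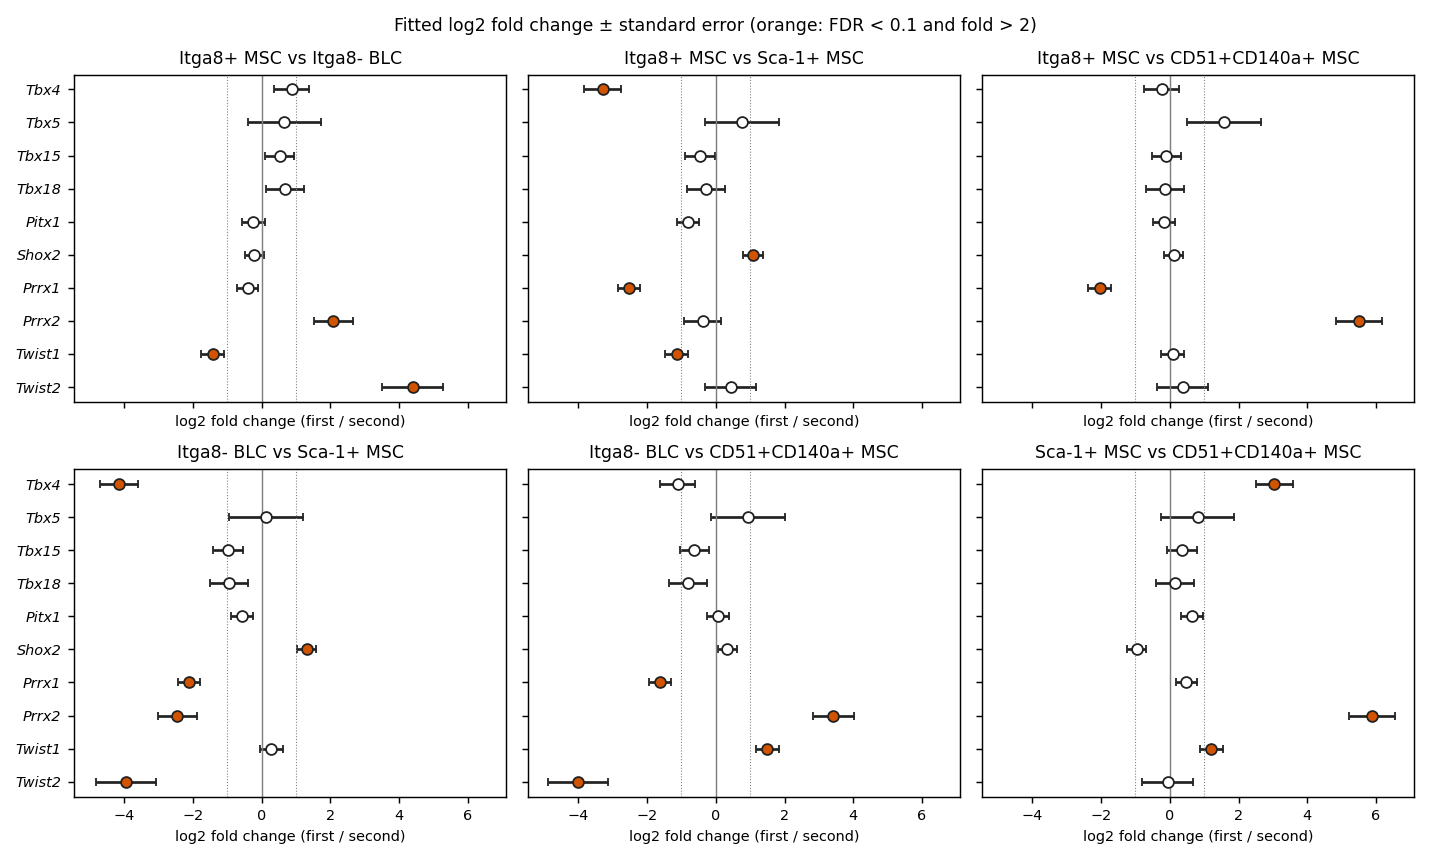
Fitted log2 fold change of the first named population over the second, with its standard error, for each factor in the 6 comparisons; orange points passed an FDR under 0.1 and a fold above 2, and dotted lines mark a 2-fold change. Tbx4 lies at -3.29, -4.15 and 3.04 in the 3 comparisons with Sca-1+ MSCs, and Prrx2 at 5.50, 3.42 and 5.87 in the 3 with CD51+CD140a+ MSCs.

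A wider list of 126 genes of the same pathways was examined for context: other T-box genes, paired-type and LIM homeobox genes, bHLH partners and Id inhibitors, Snail and Zeb repressors, other limb transcription factors, and limb signals. Of these, 93 passed the filter on low counts. Between 19 of them (20.4%), for the 2 Alcam+ populations, and 57 (61.3%), for CD51+CD140a+ MSCs against Itga8+ or Sca-1+ MSCs, were called. Both directions were met in each comparison, from 9 higher in Itga8+ MSCs and 10 higher in Itga8-Alcam+ BLCs to 16 higher in Itga8+ MSCs and 23 higher in Sca-1+ MSCs. The median log2 difference of the list lay between -0.17 and 0.12. Several genes of the list, such as Scx, Sox9, Runx2 and Sp7, also serve as markers of tendon, cartilage or osteoblasts.

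**Figure D4:**
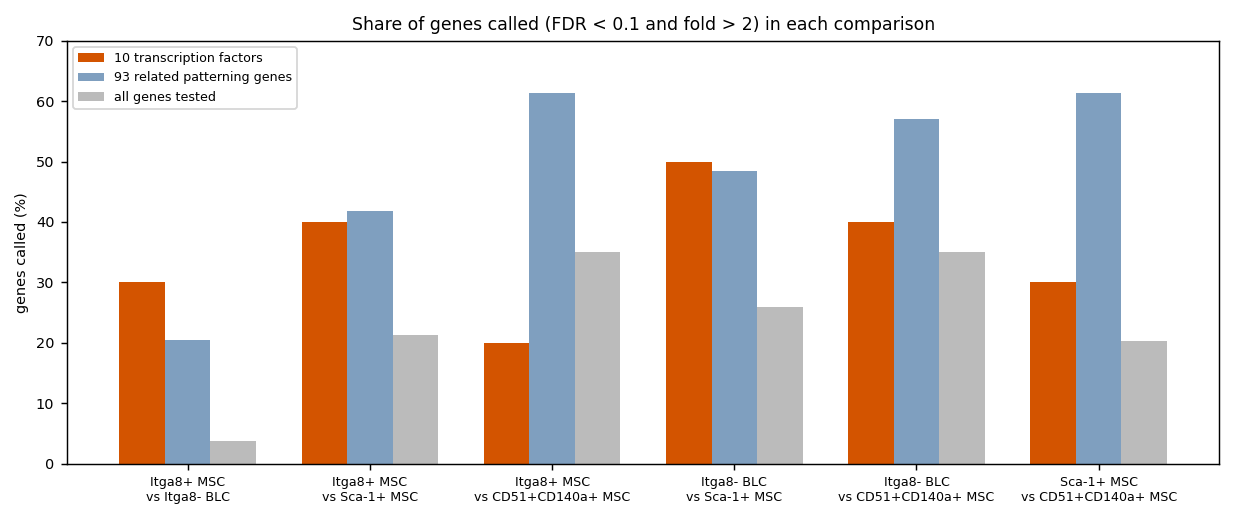
Percentage of genes called in each of the 6 comparisons (bars from 0) among the 10 factors, the 93 related genes tested and all genes tested. The share of the 10 factors was 20 to 50%, that of the related genes 20.4 to 61.3% and that of all genes 3.68 to 35.1%.

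Among the other T-box genes, 6 of 13 were tested and 1 to 3 were called per comparison, where 3.68 to 35.1% of all genes were called. Tbx2, a T-box repressor of the limb flanks, was at 45.1, 80.6 and 47.9 CPM in Itga8-Alcam+ BLCs and at 30.3, 24.9 and 35.5 CPM in CD51+CD140a+ MSCs, but at 6.88, 2.23 and 16.3 CPM in Itga8+ MSCs and at 2.27, 3.00 and 4.31 CPM in Sca-1+ MSCs. It was 18.1-fold higher in Itga8-Alcam+ BLCs than in Sca-1+ MSCs (log2 difference 4.17, SE 0.63, edgeR FDR = 0.000928), so Tbx2 had its lowest mean in the population in which Tbx4 was highest. Its neighbour in the family, Tbx3, stayed between 1.32 and 12.1 CPM and was called in no comparison. Mga, which carries both a T-box and a bHLH domain, was 3.39-fold higher in Sca-1+ MSCs than in Itga8-Alcam+ BLCs (FDR = 0.0281).

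Of 19 paired-type and LIM homeobox genes, 12 were tested, and no called gene among them reached a mean of 10 CPM in any population. Alx4, a homeobox gene of the anterior limb bud, was highest in CD51+CD140a+ MSCs (5.72 ± 1.64 CPM) and lowest in Sca-1+ MSCs (0.429 ± 0.347 CPM; log2 difference 3.73, SE 1.02, edgeR FDR = 0.026). Lmx1b, the dorsal limb factor, averaged 0.459 to 0.891 CPM and was not called.

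The E proteins that pair with Twist factors were abundant in each population. Tcf3 averaged 48.6 to 60.1 CPM and Tcf12 32.7 to 81.3 CPM, and Tcf4 averaged 252 and 216 CPM in Itga8+ and Sca-1+ MSCs and 128 and 102 CPM in the other populations. Tcf4 was 2.47-fold higher in Itga8+ than in CD51+CD140a+ MSCs (edgeR FDR = 0.00749). Of the Id genes, which take E proteins away from such dimers, Id4 was at 235, 287 and 284 CPM in CD51+CD140a+ MSCs and at 30.8 CPM or lower elsewhere (FDR = 1.57e-06 against Itga8-Alcam+ BLCs). Id2 was 5.64-fold higher in Itga8+ than in CD51+CD140a+ MSCs (FDR = 0.00907), with a single Itga8+ library, replicate 2, at 747 CPM. Scx, the bHLH factor of tendon progenitors, was at 131, 442 and 296 CPM in Itga8+ MSCs and at 45.4 CPM or lower in the other libraries, with 1 count in all 3 of CD51+CD140a+ MSCs. Msc, another bHLH repressor, averaged 25.5 CPM in CD51+CD140a+ MSCs and 1.77 CPM in Sca-1+ MSCs (FDR = 0.00834).

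Of the zinc finger repressors that share mesenchymal roles with Twist1, Zeb2 and Snai2 were highest in CD51+CD140a+ MSCs. Zeb2 was at 248, 241 and 315 CPM there, against 18.0, 8.15 and 14.7 CPM in Itga8+ MSCs (log2 difference 4.30, FDR = 0.000173 by edgeR). Snai2 averaged 183 CPM there, against 29.0 CPM in Sca-1+ MSCs (2.66, FDR = 0.000114). Zeb1 ran the other way, at 61.0 CPM in Sca-1+ MSCs and 11.8 CPM in CD51+CD140a+ MSCs (2.37, FDR = 0.00105).

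Of 51 other limb transcription factors, 44 were tested. Barx1, a homeobox gene of joints and stomach mesenchyme, was at 40.0, 44.5 and 44.4 CPM in Sca-1+ MSCs and at 7.17 CPM or lower in the other 9 libraries, so it shared its highest population with Tbx4. Foxd1 was also highest there, at 11 ± 3.1 CPM. Pax1, a sclerotome and shoulder girdle gene, averaged 34.6 CPM in Itga8-Alcam+ BLCs and 24.5 CPM in Itga8+ MSCs, and Foxf1 averaged 15.7 and 9.21 CPM. Barx1, Pax1, Foxf1 and Foxd1 were each called lower in CD51+CD140a+ MSCs, where their 3 libraries held 5, 5, 3 and 8 counts in all. Msx1, a homeobox repressor downstream of BMP signals, was at 12.8, 9.55 and 9.59 CPM in Itga8-Alcam+ BLCs and at 23.0 CPM or higher in the other 9 libraries. It was 4.58-fold higher in Itga8+ MSCs than in Itga8-Alcam+ BLCs (log2 difference 2.20, SE 0.283, edgeR FDR = 0.00163). Gli3, a hedgehog effector, averaged 45.3 CPM in CD51+CD140a+ MSCs and 11.6 CPM in Itga8-Alcam+ BLCs (FDR = 0.033).

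Of the limb signals, 15 of 22 were tested, with 2 to 12 called per comparison. The 2 of 15 were for the 2 Alcam+ populations (3.68% of all genes) and the 12 of 15 for Sca-1+ against CD51+CD140a+ MSCs (20.3%). Fgf10, the mesenchymal signal that starts limb bud outgrowth and a target of Tbx4 and Tbx5, was at 10.5, 11.5 and 9.79 CPM in Sca-1+ MSCs. It held 3 counts in all in Itga8+ MSCs, 1 in Itga8-Alcam+ BLCs and none in CD51+CD140a+ MSCs. Against a floor of 3 counts per library, Fgf10 was at least 120-fold higher in Sca-1+ than in CD51+CD140a+ MSCs. Fgf9 was at 31.6, 27.5 and 66.2 CPM in Sca-1+ MSCs and without a count in CD51+CD140a+ MSCs, at least 474-fold higher by the same floor. Bmp7 averaged 200 CPM in Itga8+ MSCs and 198 CPM in Itga8-Alcam+ BLCs, against 2.63 CPM in Sca-1+ and 0.336 CPM in CD51+CD140a+ MSCs. Rspo2, a Wnt agonist of the limb ridge, averaged 117 CPM in CD51+CD140a+ MSCs, 10.9 CPM among Sca-1+ MSCs, 0.278 in Itga8-Alcam+ BLCs and 0.226 in Itga8+ MSCs.

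**Figure D5:**
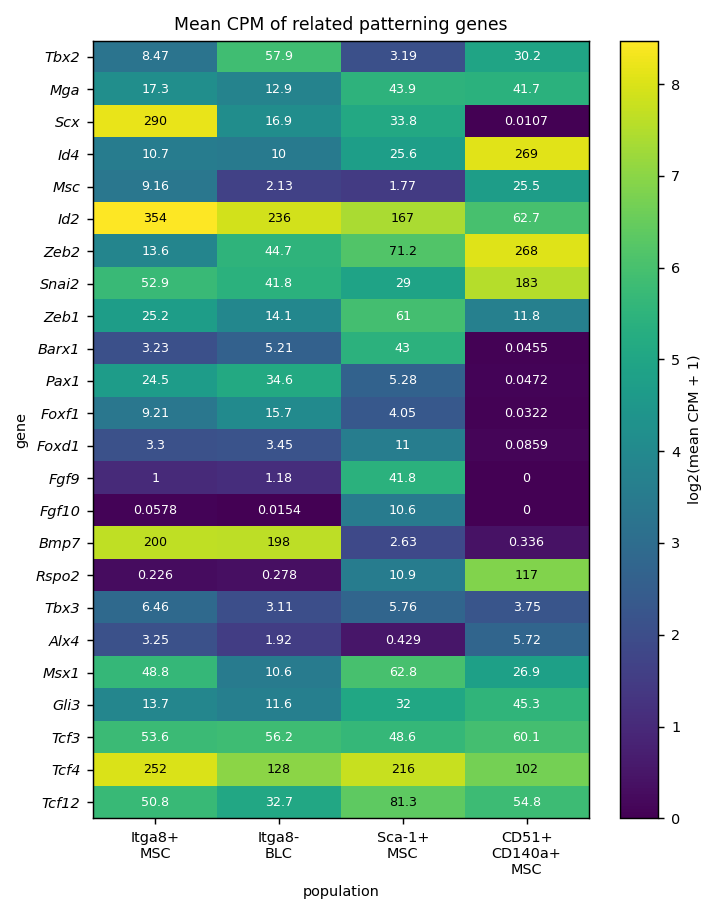
Mean CPM over 3 libraries (printed in each cell) of the related patterning genes named in the text, without Lmx1b, Sox9, Runx2 and Sp7, in the 4 populations. Colour is log2(mean CPM + 1). Fgf9, Fgf10 and Barx1 are highest in Sca-1+ MSCs, Scx is highest in Itga8+ MSCs, Msx1 is lowest in Itga8-Alcam+ BLCs, and Id4, Zeb2 and Rspo2 are highest in CD51+CD140a+ MSCs.

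For the 8 factors that reached a mean of 10 CPM in a population, which leaves out Tbx5 and Twist2, the genes with the most similar level pattern were ranked by the root mean square difference of centred log2 CPM over the 12 libraries, among 10564 genes with at least 10 CPM in their highest population. For Tbx4, whose own root mean square spread was 1.67, the nearest were the lincRNA Gm16933 (difference 0.40), the sterol hydroxylase Cyp27a1 (0.49) and the glycosyltransferase A4galt (0.64). For Prrx1 (spread 1.12) they were Stxbp6 (0.25), Tsga10 (0.29) and Clu (0.33), and for Prrx2 (2.44) the actin-capping Capg (0.58), the retinoic acid-binding Crabp2 (0.64) and Tnfsf9 (0.69). For Shox2 (0.55) they were Poldip2 (0.15), H2afy2 (0.19) and Tmem38b (0.19), and for Twist1 (0.72) Rps6ka3 (0.36), Raph1 (0.37) and 1700101I11Rik (0.38). Among the factors called in no comparison, the nearest to Tbx15 (spread 0.63) were Tnpo3, Slc35b4 and Cask (0.20 to 0.22). Those of Tbx18 (0.74) were Gabpb2, Cmtr1 and Tnrc6a (0.42 to 0.43), and those of Pitx1 (0.36) were Rock1, Fuz and Dhdds (0.21 to 0.22). None of these 8 factors was among the 3 nearest genes of another.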

How the data were processed

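Cells were sorted by the authors from wild-type mice, 2000 per sample, and RNA was amplified with SMART-Seq v4, which does not mark strand, before Nextera XT libraries were sequenced. The paper states mapping to mm10 with TopHat and Bowtie2, whereas the submitters' processing notes list FastQC 0.11.7, Trimmomatic 0.38, HISAT2 2.1.0, SAMtools 1.9 and featureCounts 1.6.3. The authors deposited raw counts of reads per Ensembl gene, without normalization. Amplification and short-read coverage can favour genes by length, and opposite-strand genes share reads.

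Groups and replicate numbers came from the labels. Of 49585 identifiers, 49326 were named in GENCODE M21 (GRCm38, the same assembly as mm10). All 12 libraries entered 1 quasi-likelihood fit in edgeR (TMM scaling). It covered the 18648 genes that reached 0.5 CPM in any library, and the 4 populations were compared in 6 pairs. SE is the log2 fold change divided by the square root of F. TPM used exon lengths of GENCODE M21. Sequences came from RefSeq (GRCm38.p6). Tools were R 4.3.3, edgeR 4.0.16, limma 3.58.1, DESeq2 1.42.0, matplotlib 3.10.9, scipy 1.17.1, pandas 2.3.3 and numpy 2.4.6 under Python 3.11.15. The fits were tested on simulated data.

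The members, the lists and the comparisons were chosen with earlier results of these data known. Besides the members, the text names up to 4 genes of each related list with the largest called change (10 CPM or more where higher), 11 family members and partners named by list, and the 3 genes most like each factor. One gene that this rule names is not reported here. Other tools were limma-trend and DESeq2, and other scalings were library totals alone and RLE size factors. Filters were a single count, or 10 counts in 3 libraries. Further alternatives fitted the 2 populations compared without the others, blocked on the replicate number, lowered the FDR limit to 0.05 and left out each library in turn. Leaving out Itga8+ replicate 2 and Itga8- replicate 3 together was added after seeing the data.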

Additional observations from a re-analysis of the deposited data

How the results depend on the processing

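Of the 21 called differences of the 10 factors, none changed direction in 16 alternatives, 15 passed both thresholds in each of them, and 6 were lost at least once: Prrx2 and Twist2 between the 2 Alcam+ populations, Twist1 in 3 comparisons and Shox2 between Itga8+ and Sca-1+ MSCs. Another 6 differences, uncalled in the report, passed both thresholds in 1 to 4 alternatives, 14 values in all: Tbx4, Tbx5 and Tbx18 between Itga8-Alcam+ BLCs and CD51+CD140a+ MSCs (3, 1 and 1), Tbx5 between Itga8+ and CD51+CD140a+ MSCs (2), Tbx15 between Itga8-Alcam+ BLCs and Sca-1+ MSCs (3) and Shox2 between Sca-1+ and CD51+CD140a+ MSCs (4). Of these 14, 4 came with library totals alone. With only Itga8+ MSCs and Itga8-Alcam+ BLCs in the fit, 0 factors and 10 related genes were called by edgeR instead of 3 and 19, from fewer samples. At that setting 3 factors had an unadjusted p under 0.05, and DESeq2 with all libraries called 3. The share of all genes is not given for either setting, so these counts have no background beside them. Leaving out 1 library gave 1 to 2 factors for this pair (1 without Itga8+ replicate 1 or Itga8- replicate 1), 3 to 4 for Itga8+ against Sca-1+ MSCs, 2 to 3 for Itga8+ against CD51+CD140a+ MSCs, 5 to 6 for Itga8-Alcam+ BLCs against Sca-1+ MSCs, 4 to 5 for Itga8-Alcam+ BLCs against CD51+CD140a+ MSCs and 2 to 4 for Sca-1+ against CD51+CD140a+ MSCs. Leaving out Itga8+ replicate 2 and Itga8- replicate 3 together gave 2, 3, 2, 5, 5 and 3 factors for Itga8+ against Itga8-, Itga8+ against Sca-1+, Itga8+ against CD51+CD140a+, Itga8- against Sca-1+, Itga8- against CD51+CD140a+ and Sca-1+ against CD51+CD140a+. Library totals alone shifted the median of all genes by up to -0.33 (log2).

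Whether same-numbered libraries came from the same animals cannot be told from the correlations of their deviations. These ran from -0.582 to 0.204 between the 2 Alcam+ populations and from 0.041 to 0.159 between Itga8-Alcam+ BLCs and Sca-1+ MSCs. Per pair of populations, 0 to 5 of 6 libraries correlated best with their own number, with 5 for Itga8-Alcam+ BLCs and Sca-1+ MSCs. With the replicate number as a block, 2 factors and 14 related genes were called between the 2 Alcam+ populations, with Prrx2 lost, and 4, 2, 5, 4 and 3 factors in the other comparisons, as without it.

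Differences that changed direction were all uncalled, and the cause was not tested. With library totals alone the log2 values were 0.04 for Pitx1 and 0.04 for Shox2 between Itga8+ MSCs and Itga8-Alcam+ BLCs, -0.30 for Pitx1 and -0.01 for Shox2 between Itga8-Alcam+ BLCs and CD51+CD140a+ MSCs, -0.14 for Tbx5 between Itga8-Alcam+ BLCs and Sca-1+ MSCs, and -0.05 for Twist1 between Itga8+ and CD51+CD140a+ MSCs. Twist2 between Sca-1+ and CD51+CD140a+ MSCs was 0.04 with limma-trend and 0.08 with the replicate block. With Itga8+ replicate 2 and Itga8- replicate 3 left out, the values against CD51+CD140a+ MSCs were 0.19 for Tbx4, 0.30 for Tbx15, 0.02 for Tbx18 and -0.22 for Twist2 in Itga8+ MSCs, and that of Twist2 against Sca-1+ MSCs was -0.17. Leaving out 1 library at a time gave values on both sides of 0 for Itga8+ against CD51+CD140a+ MSCs in Tbx4 (-0.83 to 0.18), Tbx15 (-0.36 to 0.30), Tbx18 (-0.91 to 0.26), Twist1 (-0.16 to 0.28) and Twist2 (-0.22 to 0.78). The same held for Itga8+ against Sca-1+ MSCs in Tbx18 (-1.10 to 0.11) and Twist2 (-0.21 to 0.81), for Sca-1+ against CD51+CD140a+ MSCs in Tbx18 (-0.16 to 0.45) and Twist2 (-0.40 to 0.33), for Itga8+ MSCs against Itga8-Alcam+ BLCs in Tbx18 (-0.10 to 1.06), and for these BLCs in Tbx5 against Sca-1+ MSCs (-0.32 to 0.48) and in Pitx1 against CD51+CD140a+ MSCs (-0.05 to 0.16).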
